A study of Mus musculus with 24 samples.

Results

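The cytosolic ribosomal protein genes encode the protein part of the ribosome that translates nuclear transcripts. They were taken by symbol: protein-coding genes named Rpl or Rps with a number, together with Rplp0, Rplp1, Rplp2 and Rpsa, leaving out the Rps6k kinases, and with a mean of at least 10 normalized counts over the wild-type libraries. This gave 81 of the 18091 genes in the wild-type table, 48 named for the large subunit and 33 for the small one. A further 7 protein-coding symbols fell below the minimum mean. Just inside it were Rps10, with a mean of 11.8, and Rpl9-ps6, with 14.0, and just outside it was Rpl39l, with 9.65. The symbol rule also took in Rps19bp1, which encodes a protein that binds ribosomal protein S19, and Rpl7l1, a relative of Rpl7 known from ribosome assembly. Another 109 rows were ribosomal protein pseudogenes and were not counted as members. No value was used to choose the members other than the minimum mean.

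RNA came from primary mouse brain microvascular endothelial cells, which line the brain's small vessels, grown to a barrier on transwell inserts after puromycin selection against other cell types. Wild-type C57/B6 cells were given the S1P4 receptor agonist CYM50260 (500 nM) on the apical or the basal side, sphingosine-1-phosphate (S1P, 50 nM) on the apical or the basal side, or vehicle, for 24 h. Cells labelled as a global S1P4 knockout received vehicle only and were kept in a separate table. Each of the 6 groups had 4 libraries, and the design text gives 12 mice per replicate, so each library is a pool of animals. The labels do not say whether equal replicate numbers mark 1 pool of mice.

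Each mature ribosome holds 1 copy of nearly every ribosomal protein, so these transcripts are made at high and balanced levels. Many of their messenger RNAs begin with a C followed by a run of pyrimidines, the terminal oligopyrimidine tract, through which the growth kinase mTOR controls their translation more than their transcription. S1P acts through receptors coupled to G proteins, of which S1P4 is the one that CYM50260 activates.

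The start regions below are shown because some members have that tract at the annotated start and others do not have it there. The naming rule did not use this feature. RefSeq start windows (GRCm38.p6, 250 bases before to 50 after the start) on the right chromosome and strand were found for 60 of the 81 members. In each line, 15 bases before the annotated start are followed by 15 from it. Capitals mark the pyrimidine run that opens the annotated transcript. The first 6 members have such a run at the start shown, and the others do not have it at theirs.
Rps6, chr4:86857353-86857382, minus strand: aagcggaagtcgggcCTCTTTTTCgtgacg
Rps15a, chr7:118116133-118116162, minus strand: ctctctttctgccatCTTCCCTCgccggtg
Rpl35a, chr16:33056467-33056496, plus strand: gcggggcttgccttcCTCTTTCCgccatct
Rpl38, chr11:114668565-114668594, plus strand: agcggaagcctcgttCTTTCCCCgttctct
Rplp2, chr7:141447636-141447665, plus strand: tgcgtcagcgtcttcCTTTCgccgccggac
Rps10, chr17:27635230-27635259, minus strand: gcgccgcgcacgcccCTTCCTTTCCagcct
Rplp0, chr5:115559452-115559481, plus strand: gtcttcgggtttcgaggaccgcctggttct
Rpl4, chr9:64173372-64173401, plus strand: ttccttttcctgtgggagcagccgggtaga
Rpl22, chr4:152325711-152325740, plus strand: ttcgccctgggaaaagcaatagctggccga
Rpl22l1, chr3:28805493-28805522, plus strand: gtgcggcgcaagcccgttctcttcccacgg
Rps27l, chr9:66946071-66946100, plus strand: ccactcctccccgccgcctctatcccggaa

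A start with C followed by 4 pyrimidines was found in 13 of the 60 members (21.7%), against 813 of the 27025 genes with a window (3.01%). A RefSeq start need not be the start these cells use, so a member without a run there may still carry the tract. Rpl35a, Rpl22 and Rps27l have further annotated starts that do not open with such a run. In the whole window of 300 bases, searched on both strands, CCGGAAG, the core that ETS-family factors bind, was found in 25 members (41.7%), against 9.93% of all genes with a window. The letters GCCATCTT, around which YY1 binds, were found in 6 members (10%), against 3.19% of all genes. TATAAA was found in 7 members (11.7%), against 15.7% of all genes. These are matches of letters and not measured binding. The 27025 genes with a window were not limited to the 12249 tested here, so they differ from the members in more than membership.

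The deposited values behave as counts per gene that were scaled by 1 factor in each library and then rounded, and are called normalized counts here. Gaps and doublings in the whole numbers gave what 1 read was worth in each library, and dividing by it gave estimated reads. The wild-type libraries held 3.93 to 5.54 M estimated reads on genes, and their normalized totals were 4.49 to 4.72 M. All 13 endothelial markers were present (22115 to 27152 summed normalized counts per library). Pericyte markers summed to 268 to 2741, smooth muscle markers to 963 to 2425 and fibroblast markers to 84 to 841. Astrocyte markers stayed at 5 to 23, microglia and leukocyte markers at 2 to 28 and oligodendrocyte markers at 2 to 17, while the neuron markers in the table summed to 74 to 330 and no erythroid marker had a row. The ranges of these sums overlapped between each treated group and vehicle, and their part in the results was not tested. In 4 libraries Xist, the RNA of the silenced X chromosome, did not match the other libraries of their replicate number. They were apical agonist replicate 2 (1382 normalized counts), apical S1P replicate 3 (525), apical S1P replicate 4 (1417) and basal S1P replicate 2 (552). In the other libraries with these numbers Xist lay at 2251 to 2555 for replicate 2, 1063 to 1608 for replicate 3 and 173 to 244 for replicate 4. The replicate 1 libraries had 0 under each treatment and 1 with vehicle.

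No ribosomal protein gene passed the test in any comparison, but nearly all of them leaned the same way relative to vehicle. With apical agonist the mean of 79 of 81 members was above vehicle, under basal agonist 78, under apical S1P 79 and under basal S1P 78. The lean was small: the median log2 difference was 0.15 under apical agonist, 0.09 under basal agonist, 0.12 under apical S1P and 0.15 under basal S1P. Over all 12249 genes tested the medians lay between -0.0042 and 0.0045, and 48.5%, 52.5%, 49.8% and 50% of genes were above vehicle in the same 4 comparisons. All 4 comparisons use the same vehicle libraries, so their counts are not independent of each other.

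**Figure D1:**
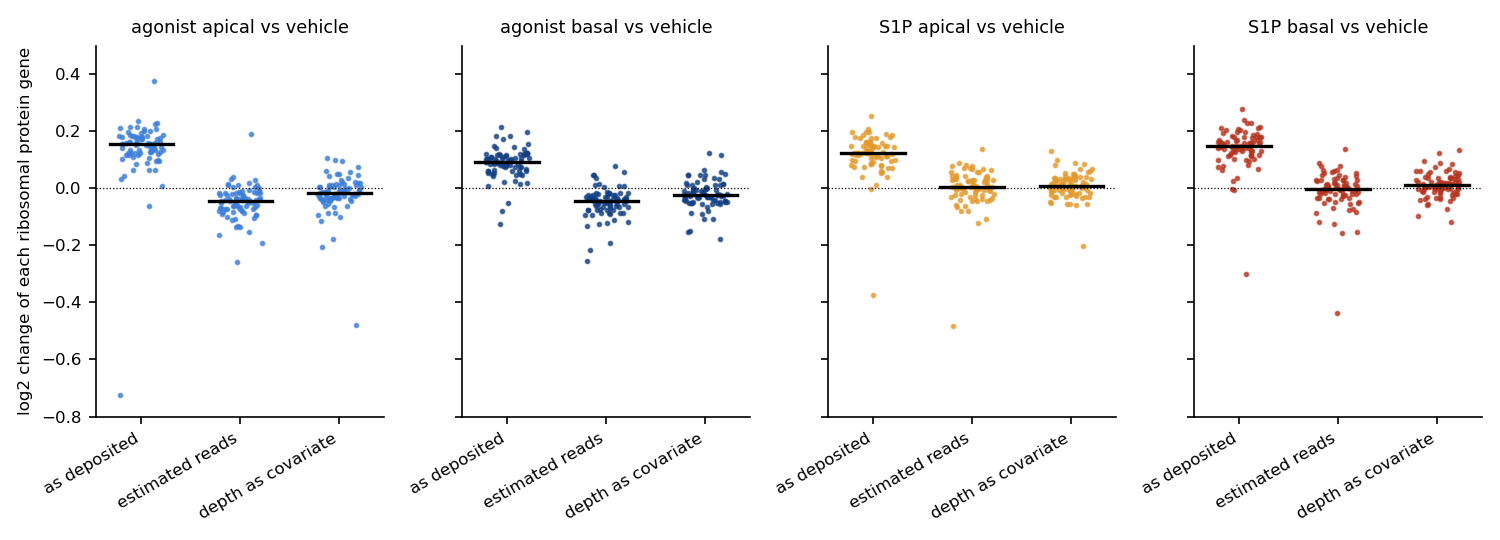
Log2 difference of each of the 81 ribosomal protein genes (points) from vehicle, in 4 panels, on normalized counts as deposited, on estimated reads and with library depth as a covariate; black bars are medians and the dotted line is 0. As deposited the medians lie at 0.15, 0.09, 0.12 and 0.15, and on the other 2 scales they lie between -0.05 and 0.01. Over all genes tested, which are not drawn, the medians on estimated reads were -0.20, -0.13, -0.12 and -0.15.

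The test was limma on log2(normalized count + 1) over all 20 wild-type libraries, adjusted by Benjamini-Hochberg over all genes tested, with calls under 0.05. With apical agonist against vehicle it called 0 members, where 0% of all genes were called, and 2 members had an unadjusted p under 0.05 (Rps15a and Rpl4), against 1.09% of genes. With basal agonist it called 0 members (0% of all genes), and 0 members had an unadjusted p under 0.05, against 0.31% of genes. With apical S1P it called 0 members (0% of all genes), with 0 members at an unadjusted p under 0.05, against 0.996% of genes. With basal S1P it called 0 members (0.0245% of all genes, 3 genes), with 2 members at an unadjusted p under 0.05 (Rpl39 and Rps15a), against 5.22% of genes. The lowest adjusted p of any member was 0.756, in basal S1P against vehicle. The moderated F test over the 5 groups called 0 members and 3 genes (0.0245%), and 0 members had an unadjusted p under 0.05 there, against 1.73% of genes.

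The groups overlapped for almost every member. With apical agonist, Rps15a and Rpl9-ps6 had all 4 libraries above all 4 vehicle libraries, and 0.335% of all genes tested did so. In the other 3 comparisons with vehicle 0 members were separate in that direction, against 0.278% of genes under basal agonist, 0.604% under apical S1P and 1.03% under basal S1P. Below vehicle, 0 members were separate in the 4 comparisons, against 0.343%, 0.31%, 0.718% and 1.08% of genes. The large-subunit and small-subunit members had similar median differences, 0.16 and 0.15 under apical agonist and 0.14 and 0.16 under basal S1P. In bulk RNA fewer cells of a type and less RNA per cell cannot be told apart.

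Between the 2 sides of application the members did not keep 1 direction. With basal against apical S1P, 58 of 81 members were higher (50.2% of all genes), with a median of 0.02, and 0 members were called, where 3 genes (0.0245%) were. With basal against apical agonist, 9 of 81 were higher (50.3% of all genes), with a median of -0.06, and 0 members were called (0% of all genes). At an unadjusted p under 0.05 there were 0 members in either comparison, against 4.01% of genes for S1P and 0.498% for the agonist. Between the sides, 0 members had separate groups. Of all genes tested, 0.751% were separate upwards and 0.645% downwards for S1P, and 0.261% and 0.171% for the agonist. Both medians changed sign when single libraries were left out: the S1P median ran from -0.04 to 0.09 and the agonist median from -0.11 to 0.01.

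Single members show the same pattern by library. Rps15a, a small-subunit protein gene with the tract shown above (chr7:118104372-118116188), had the smallest unadjusted p among higher members in 3 comparisons with vehicle. It had 182, 193, 205 and 184 normalized counts under apical agonist, 167, 181, 216 and 194 under basal agonist, 160, 185, 187 and 200 under apical S1P and 168, 215, 201 and 190 under basal S1P, against 156, 168, 180 and 155 with vehicle. All apical agonist libraries were above all vehicle libraries, and the other 3 groups overlapped with vehicle. Its log2 difference from vehicle was 0.21 under apical agonist (SE 0.10, limma adjusted p 0.9999) and 0.23 under basal S1P (SE 0.10, adjusted p 0.7558).

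The stalk proteins Rplp0, Rplp1 and Rplp2 recruit the elongation factors. Rplp0 (chr5:115559467-115563727) had 594, 669, 746 and 587 normalized counts under apical agonist, 562, 543, 694 and 676 under basal agonist, 562, 572, 663 and 700 under apical S1P and 541, 753, 689 and 589 under basal S1P, against 512, 535, 619 and 623 with vehicle. The range of libraries within each group was wider than the distance between any group means. As SD the spread within groups was 57.1 to 95.8, with group means from 572 to 649. The log2 differences from vehicle were 0.18, 0.11, 0.12 and 0.16 for the 4 treatments in that order, each with an SE of 0.12. Rplp1 had log2 differences of 0.19, 0.10, 0.13 and 0.17 and Rplp2 of 0.22, 0.14, 0.15 and 0.18, and neither was called. Rpsa, a small-subunit protein also known as the laminin receptor precursor, averaged 401.5 ± 49.8, 385 ± 42.5, 392 ± 43.7 and 404.5 ± 44.8 normalized counts under apical agonist, basal agonist, apical S1P and basal S1P, against 360.0 ± 39.5 with vehicle (SD, n = 4 each).

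Among members with known special roles, Rps6 is the small-subunit protein that S6 kinases phosphorylate downstream of mTOR. Rps6 had 196, 197, 230 and 192 normalized counts under apical agonist, 172, 173, 213 and 213 under basal agonist, 175, 169, 209 and 213 under apical S1P and 168, 225, 212 and 185 under basal S1P, against 158, 171, 195 and 192 with vehicle. Apical agonist replicate 3 stood above the other 3 libraries of its group, and every treated group overlapped with vehicle. Its log2 difference was 0.19 under apical agonist (SE 0.12) and 0.14 under basal S1P (SE 0.12), with limma adjusted p of 0.9999 and 0.762. Rpl5 and Rpl11, which bind Mdm2 when ribosome assembly fails, had log2 differences from vehicle of 0.06 and 0.17 under apical agonist and of 0.12 and 0.10 under basal S1P. Rps19, mutated in Diamond-Blackfan anaemia in people, had differences of 0.14 and 0.11 in the same comparisons, and Rps14 of 0.12 and 0.10. Rpl38, which in mouse embryos affects translation of Hox transcripts, had a difference of 0.25 under apical S1P (SE 0.14). Rpl10a, linked in mouse cells to the translation of particular transcripts, had differences of 0.06 under apical agonist and of -0.0032 under apical S1P.

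Rpl39, a small protein of the exit tunnel, had the largest side difference upwards for S1P. It had 81, 105, 101 and 87 normalized counts under basal S1P, against 79, 79, 84 and 93 under apical S1P. The groups overlapped, and the log2 difference was 0.15 (SE 0.11, limma adjusted p 0.9992). Rpl13a had the largest side difference downwards, with 109, 131, 134 and 106 normalized counts under basal S1P, against 114, 137, 136 and 148 under apical S1P. That difference was -0.16 (SE 0.11, adjusted p 0.9992).

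**Figure D2:**
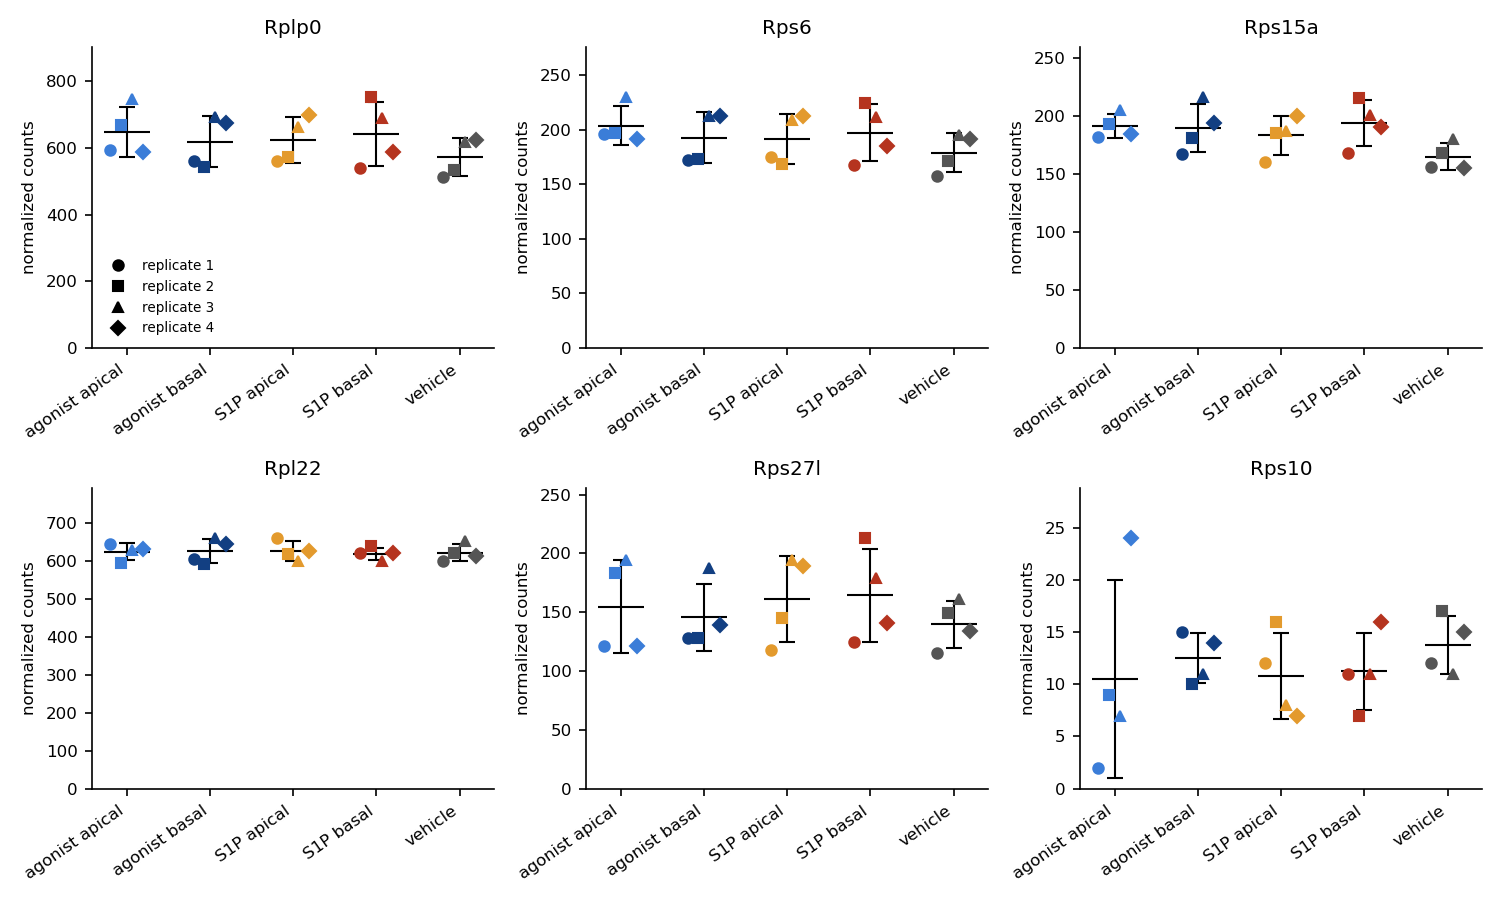
Normalized counts of 6 ribosomal protein genes in each wild-type library (points, shaped by replicate number), with group mean and SD (n = 4) and treated groups left of vehicle. Rplp0, Rps6 and Rps15a are somewhat higher in treated groups with overlapping libraries, Rpl22 stays between 592 and 659, and Rps10 lies at 2 to 24.

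The members' spread over libraries was much alike, with exceptions. The SD of log2 values over the 20 libraries had its lowest values for Rpl22 (0.05), Rpl3 (0.08) and Rpl5 (0.10), and its highest for Rps27l (0.29), Rpl9-ps6 (0.34) and Rps10 (0.64). Rpl22, which is not needed for most translation and in mouse holds down its relative Rpl22l1, had 643, 593, 628 and 631 normalized counts under apical agonist and 619, 637, 598 and 619 under basal S1P, against 598, 620, 652 and 612 with vehicle. Its mean was 623.8 ± 21.5 under apical agonist and 618 ± 15.9 under basal S1P, against 620.5 ± 22.9 with vehicle (SD, n = 4 each). Rpl22l1 had means of 100.2 ± 22.7 and 93.0 ± 16.1 in the same treated groups, against 92.5 ± 10.3 with vehicle.

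Rps27l, a relative of Rps27 that p53 is known to induce, varied more between libraries than between groups. It had 121, 183, 194 and 121 normalized counts under apical agonist and 125, 213, 179 and 141 under basal S1P, against 115, 149, 161 and 134 with vehicle. Rps27 averaged 133.2 and 135.2 in these treated groups, against 119.5 with vehicle (n = 4 each). Rps10 lay near the minimum mean, with 2, 9, 7 and 24 normalized counts under apical agonist, against 12, 17, 11 and 15 with vehicle, and its log2 difference of -0.73 had an SE of 0.45 (limma adjusted p 0.9999). Its exons overlap an annotated readthrough transcript with Nudt3 on the same strand, which can take reads from it. The exons of 26 members overlap another annotated gene on their strand, such as the small nucleolar RNAs Snord16a in Rpl4 and Snora52 in Rplp2. Copies of ribosomal protein genes share reads, so members with pseudogenes, and Rpl9-ps6 beside Rpl9, are uncertain.

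Of the relatives below the minimum mean, Rpl39l, a testis-rich form of Rpl39, ranged from 1 to 21 normalized counts over the wild-type libraries, and Rpl36al averaged 7.65. Rpl24 averaged 1.25, and 47.0% of its exonic length overlaps another gene on its strand. Rpl10-ps3, Rps27rt, Rps18-ps5 and Rpl36a-ps1 averaged 4.4, 7, 6 and 2.8.

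The lean of the members went together with library depth. The summed normalized counts of the 81 members averaged 20839 ± 2010 under apical agonist, 20094 ± 2070 under basal agonist, 20468 ± 1800 under apical S1P and 20780 ± 2360 under basal S1P, against 18839 ± 1500 with vehicle (SD, n = 4 each). The library totals in the same order were 4.44 ± 0.414, 4.62 ± 0.583, 4.61 ± 0.387 and 4.55 ± 0.543 M estimated reads, against 5.02 ± 0.452 M with vehicle. Vehicle was thus the deepest group on average and the one with the lowest summed level. In estimated reads the members summed to 19803 ± 737, 19894 ± 1111, 20546 ± 402 and 20360 ± 249 for the 4 treatments, against 20566 ± 949 with vehicle. On that scale no treated group had a higher mean sum than vehicle. Estimated reads are not corrected for depth, however. The median log2 differences of all genes tested on that scale were -0.20, -0.13, -0.12 and -0.15 for the 4 treatments.

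**Figure D3:**
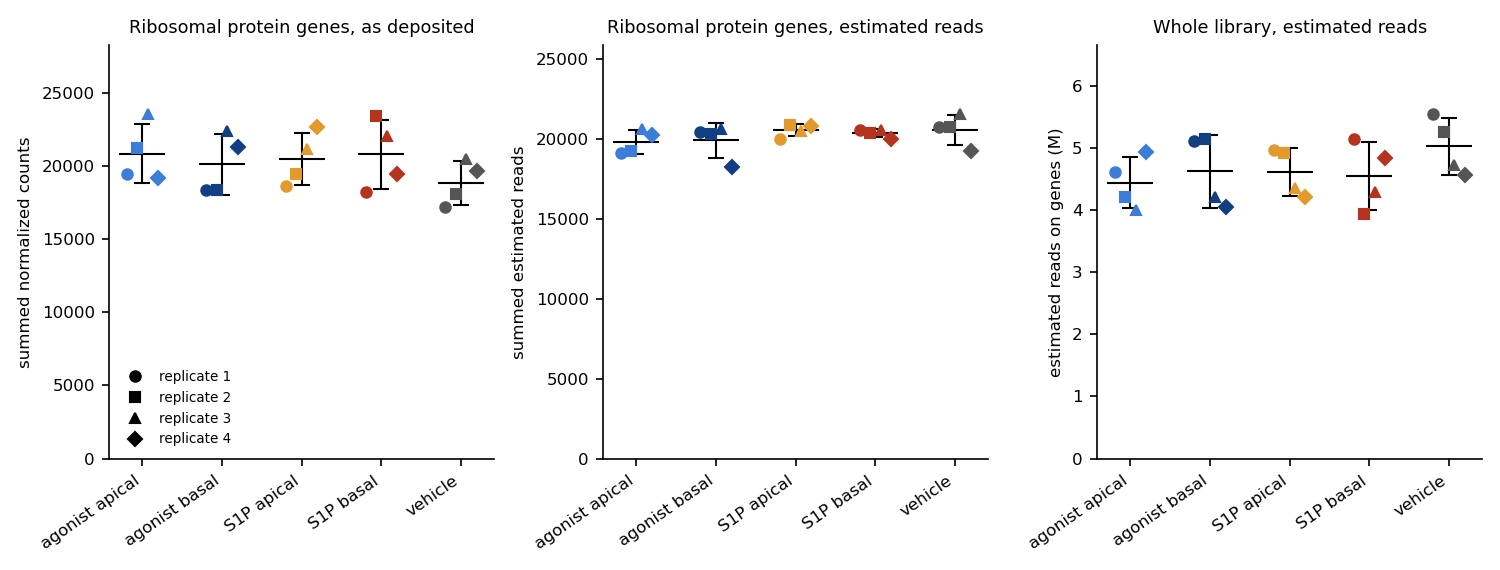
Sum over the 81 ribosomal protein genes per wild-type library as normalized counts (left) and as estimated reads (middle), and the library total in M estimated reads (right); points are libraries shaped by replicate number, with group mean and SD (n = 4), and treated groups stand left of vehicle. As deposited the sums run from 17179 to 23518, and as estimated reads from 18238 to 21524, while totals run from 3.93 to 5.54 M. Estimated reads are not corrected for depth.

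The same held within replicate numbers, taken as strata. In replicates 1, 2 and 3 the vehicle library had the lowest summed normalized counts (17179, 18054 and 20502) and the highest total (5.54, 5.25 and 4.73 M estimated reads). In replicate 4 it was neither, with 19621 normalized counts and 4.57 M estimated reads, in ranges of 19166 to 22645 and 4.04 to 4.93 M.

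Over the 20 libraries the coefficient of variation of the members' sum was 9.42% as deposited and 9.93% per M of the library's normalized total. In estimated reads, with no library factor, it was 3.73%, although library totals varied by 10.2%. Against log2 of the library total, the log2 sum as deposited had a slope of -0.88 (Pearson r -0.96) and the sum in estimated reads a slope of 0.11 (r 0.30). These are descriptions over 20 libraries, and both quantities share the library factor, so no p is given.

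With estimated reads in place of normalized counts the members' median log2 differences from vehicle were -0.04 under apical agonist, -0.05 under basal agonist, 0.01 under apical S1P and -0.0024 under basal S1P. Then 12, 10, 47 and 39 of 81 members were above vehicle, against 3.19%, 5.90%, 16.3% and 15.4% of all genes tested, and 0 members were called. On that scale the medians of all genes tested were -0.20, -0.13, -0.12 and -0.15, since no depth was corrected for. The members' medians lay above these. With log2 depth as a term beside the groups, an alternative chosen after seeing the values, the members' medians were -0.02, -0.03, 0.01 and 0.01. Of the members 28, 22, 51 and 47 were then above vehicle, against 51.1%, 50.1%, 50.8% and 53.7% of all genes tested, and 0 were called. Vehicle was the deepest group on average, and depth shares the library factor with the values. This term therefore cannot be fully separated from the groups. Without the 4 libraries whose Xist did not match their number, the deposited values gave medians of 0.14, 0.09, 0.02 and 0.08, and the one under apical S1P was the most reduced.

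Over the 20 wild-type libraries together, the reads of the members hardly grew with depth. For each gene the slope of log2(estimated reads + 1) on log2 of the library total was taken over these libraries, where 1 means that reads grow in proportion to the library. The members' median slope was 0.05, and 76 of 81 (93.8%) were under 0.5. Over all genes tested the median was 1.03 and 26.1% were under 0.5. The 5 members above 0.5 were Rps10 (2.63), Rpl22 (0.90), Rps24 (0.67), Rpl10a (0.58) and Rpl3 (0.51), named after their values were seen. The pooled slope mixes replicate numbers and groups. Within replicates 1, 2, 3 and 4 the members' median was 0.42, 0.09, 0.24 and 0.24, each from 5 libraries, all higher than the pooled value and all below 0.5. Within groups, each of 4 libraries, it was -0.13 under apical agonist, 0.25 under basal agonist, -0.17 under apical S1P, -0.03 under basal S1P and 0.17 with vehicle. Of these 5 medians, 3 lay below the pooled value and were negative.

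Slopes fell with abundance over the whole table. In the 10% of genes with the fewest estimated reads per exonic base the median slope was 2.14, and in the highest 10% it was 0.41. The 17 members in that highest 10% had a median slope of 0.01. The reads per exonic base themselves were low throughout. The highest member was Rplp1 at 0.568, followed by Rps15 at 0.486 and Rpl4 at 0.472, and no gene tested was above 0.756. The lowest members were Rps10 at 0.0052, Rpl9-ps6 at 0.0194 and Rpl35a at 0.0244. Exonic length is the union over all annotated isoforms, so genes with long minor isoforms are understated.

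The knockout table, made from libraries of 17.1 to 21.1 M estimated reads, had a far wider range. Its libraries were normalized separately, its gene boundaries match the GENCODE M21 annotation for 56 of the 81 members, and no test was made between the tables. There the highest member, Rplp1, had 35.2 estimated reads per exonic base, and the highest gene tested had 51.4. Rplp1 had 937 ± 218 counts per M of the normalized total in knockout vehicle libraries, beside 56.9 ± 4.94 in wild-type vehicle libraries (SD, n = 4 each), a ratio of 16.5. Rps10, the lowest member in the wild-type table, had 90.8 ± 13.7 beside 3.00 ± 0.585 in the same libraries, a ratio of 30.3. The members as a whole took 21098 to 29323 per M in the knockout libraries and 3742 to 4555 in the wild-type vehicle libraries. The median ratio over members was 5.90, against 0.506 over the 12163 genes tested that both tables hold, and 77 of 81 members were above 1, against 11.4% of those genes. The 4 members below 1 were Rpl22l1 (0.667), Rpl7l1 (0.797), Rps19bp1 (0.510) and Rpl23a (0.0049). Rpl23a was listed at 2, 1, 0 and 4 in the knockout libraries. These ratios compare 2 tables whose ranges differ: reads per exonic base reached 0.756 in the wild-type table and 51.4 in the knockout table, and how duplicate reads were handled was not given for either in the sources used here. Genotype and the making of the tables therefore cannot be told apart, for the 5.90 and 16.5 as for the other ratios.

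**Figure D4:**
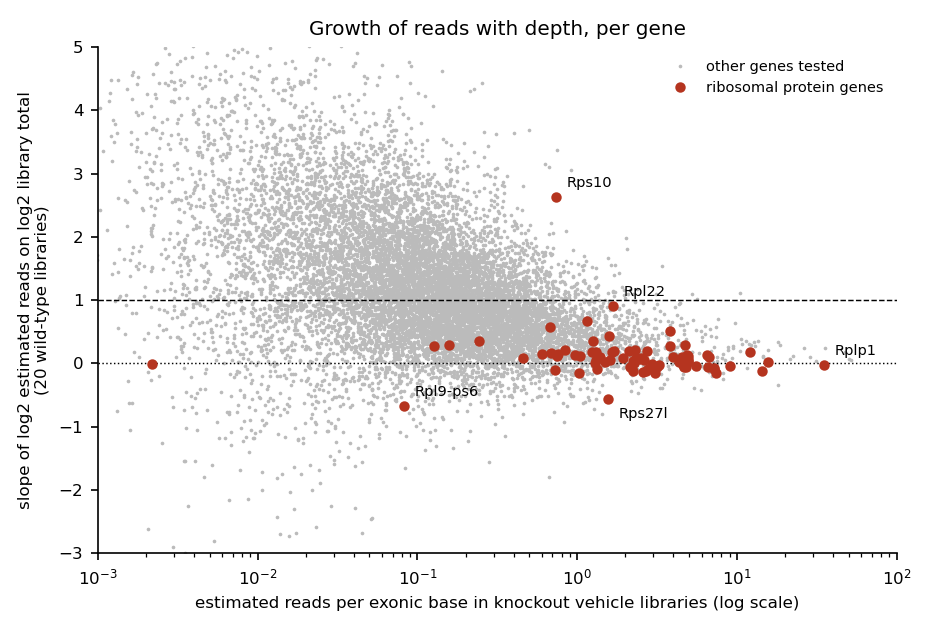
Slope of log2 estimated reads on log2 library total over 20 wild-type libraries, against estimated reads per exonic base in the knockout vehicle libraries (log scale), for 81 ribosomal protein genes (red) and the other genes tested (grey); dashed line 1, dotted line 0, with 154 other genes outside the axes. Slopes fall as abundance rises, and most members lie near 0 at over 1 read per base, with Rps10 and Rpl22 above.

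Abundance read from the knockout table gave an ordering by values that do not come from the wild-type libraries. The genes ordered were still those with a mean of at least 10 in the wild-type libraries. Exonic lengths were those of GENCODE M21, whose boundaries 72.6% of the genes in the knockout table share. Of the genes tested, 816 had over 1 estimated read per exonic base in the knockout table, and 66 of these were members. The 750 others had a median slope of 0.33, against 0.04 for the 66 members, and 517 of the 750 were under 0.5. They leaned above vehicle as well: 739, 706, 642 and 672 of the 750 were higher under apical agonist, basal agonist, apical S1P and basal S1P. Their median log2 differences were 0.11, 0.05, 0.06 and 0.11, against 0.16, 0.10, 0.12 and 0.15 for the 66 members. The members thus lay in the same direction as other abundant genes and somewhat further. Whether anything beyond abundance sets them further out was not tested.

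**Figure D5:**
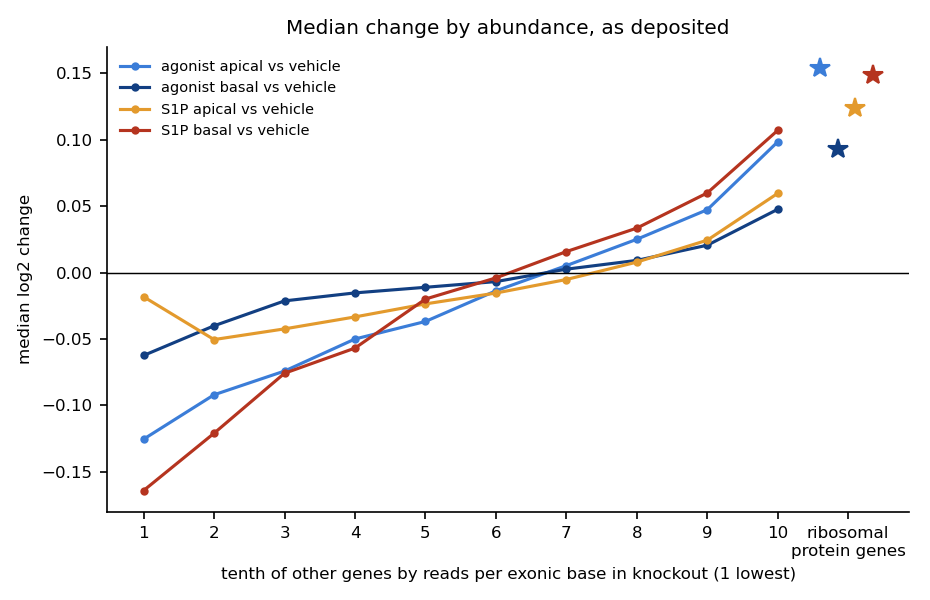
Median log2 difference from vehicle, as deposited, over genes other than ribosomal protein genes in 10 equal classes by estimated reads per exonic base in the knockout libraries (lines), with the median of the 81 ribosomal protein genes at the right (stars). The medians run from below 0 in the lowest class to 0.10, 0.05, 0.06 and 0.11 in the highest, and the stars lie at 0.15, 0.09, 0.12 and 0.15.

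Other lists of the pathway are given beside their depth slopes. Of 22 translation factors and other genes known for a pyrimidine tract, among them Pabpc1, the poly(A)-binding protein, 20, 21, 21 and 18 were above vehicle under apical agonist, basal agonist, apical S1P and basal S1P, with medians of 0.14, 0.08, 0.09 and 0.13 and a median slope of 0.13. Of 83 nuclear genes of oxidative phosphorylation, 77, 68, 80 and 81 were above vehicle, with medians of 0.12, 0.04, 0.14 and 0.16 and a median slope of 0.09. Of 77 mitochondrial ribosomal protein genes, 60, 47, 71 and 74 were above vehicle, with medians of 0.06, 0.02, 0.11 and 0.13 and a slope of 0.30. Of 40 ribosome biogenesis genes, such as Polr1b, a subunit of the polymerase that makes ribosomal RNA, 27, 28, 24 and 37 were above vehicle, with medians of 0.02, 0.03, 0.01 and 0.12 and a slope of 0.48. Of 22 genes of mTOR and growth control, 13, 13, 9 and 9 were above vehicle, with medians of 0.02, 0.01, -0.03 and -0.03 and a slope of 1.10. In all these lists 0 genes passed the test in any of the 6 comparisons.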

How the data were processed

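Poly(A) RNA of 20 wild-type and 4 knockout endothelial libraries had been sequenced by the authors. The submitters' processing notes name Trimmomatic 0.38, STAR 2.7.3a, featureCounts 1.6.5, DESeq2 1.26.0 and mm10, with no roles given, and the sources used here do not give how duplicate reads were handled. The authors deposited whole-number signal values for each gene. From the values, they are counts divided by a factor per library and rounded. What 1 read was worth was estimated from missing and doubled whole numbers (0.829 to 1.17). This was tested on 30 simulated libraries, with a largest error of 0.0024. Where 1 read was worth over 1 (10 libraries), whole reads gave 99.4% to 100% of values up to 150. In the others 2 read numbers merge into 1 value, so reads were not recovered exactly and no count model was used.

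Genes with a mean of at least 10 (12249) were fitted on log2(value + 1) with limma 3.58.1 in R 4.3.3, as group means over the 20 libraries with a mean-dependent prior, and this scale understates the change of low genes. P-values measure the spread between these pooled samples. Lengths are GENCODE M21 exon unions (mm10), and 99.1% of genes had its start and end. In the knockout table, 18297 genes stood on 36326 rows, and 72.6% of its genes had that start and end. Descriptions used Python 3.11.15, numpy 2.4.6 and pandas 2.3.3. The fit was also run on simulated counts that grew in proportion to depth, with no effect of replicate number. The members' reads did not grow that way, so that run cannot show how the fit behaves for them. Members, lists, tests and the rule for named genes (the smallest p per direction, the extremes per base and of spread, the stalk, relatives and members with known roles) were chosen with earlier results of these data known. Rps24, Rpl9 and Rpl23a are named outside that rule, after their values were seen. The rule names relatives beside their parent genes, which covers Rpl7 and Rps27. The depth covariate, and the median without Rps19bp1, Rpl7l1, Rpl9-ps6 and Rps10, were added after seeing the data.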

Additional observations from a re-analysis of the deposited data

Results flagged for a closer look

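A library was flagged where it stood far from the other 3 of its group by Dixon's test. Of 150 groups of values examined 5 were flagged, and chance flags about 1 in 20. Rps6 had 230 normalized counts in apical agonist replicate 3, against 192 to 197 in the others. Rpl9-ps6 had 21 in the same library, against 14 in each of the others. Rpl3 had 580 in apical S1P replicate 4, against 535 to 539. Rps19 had 202 in vehicle replicate 3, against 157 to 162. The 81 members summed to 18237.9 estimated reads in basal agonist replicate 4, against 20300.1 to 20600.1 in the other basal agonist libraries.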

How the results depend on the processing

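Across all settings run, 0 members were called in any comparison, and the lowest adjusted p was 0.175 (basal S1P against vehicle, replicate block). On estimated reads the members' median log2 difference moved to -0.043 (apical agonist) and -0.0024 (basal S1P), and with the depth covariate to -0.015 (apical agonist). The medians of all genes tested on estimated reads were -0.20 (apical agonist) and -0.15 (basal S1P). Leaving out 1 library gave medians of 0.08 to 0.21 (apical agonist), 0.04 to 0.14 (basal agonist), 0.07 to 0.17 (apical S1P) and 0.08 to 0.21 (basal S1P) against vehicle. The median without Rps19bp1, Rpl7l1, Rpl9-ps6 and Rps10 moved by less than 0.01. For basal against apical S1P, leaving out apical S1P replicate 1 or 2, or basal S1P replicate 2 or 3, turned the median negative (-0.04 at the lowest, 0.09 at the highest). For basal against apical agonist, leaving out apical replicate 3 turned it positive (0.01, lowest -0.11).

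Genes called in basal S1P against vehicle (3) came to 47 with the replicate block, to 0 with the 2 groups alone, and to 2 to 4 with 1 library left out. In basal against apical S1P (3) they came to 83 with the block, to 1 on estimated reads, to 1 with the 2 groups alone, to 0 without the 4 Xist-mismatched libraries, and to 1 to 3 with 1 library left out (1 without apical S1P replicate 2 or 3, or basal S1P replicate 1 or 3). The F test called 18 genes with the block, 0 on estimated reads and 1 without those 4 libraries. Same-numbered libraries deviated together in 36 of 40 pairs, and 16 of 20 correlated best with their own number. The data, not the design, hint at an effect shared by number. The other 4 pairs (lowest r -0.345) held basal S1P replicate 2 or apical S1P replicate 3, both Xist-mismatched. Pairing needed every r over 0.1, so the block stayed an alternative. With it 0 members were called, but 14, 1, 4 and 8 of 81 had an unadjusted p under 0.05 (apical agonist, basal agonist, apical S1P and basal S1P against vehicle), against 2, 0, 0 and 2 without it. Of the 12249 genes tested 429, 121, 544 and 2013 had one with the block.

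The members' coefficient of variation, 9.42% as deposited, was 3.73% on estimated reads and 15.9% when scaled by genes of low value per base. Their median depth slope, 0.05, was 0.42, 0.24 and 0.24 within replicates 1, 3 and 4. Without 1 library it ran from -0.02 (without basal agonist replicate 4) to 0.09. No member was called, and many signs turned. Under apical agonist, basal agonist, apical S1P and basal S1P against vehicle 67, 68, 32 and 39 of 81 members changed sign on estimated reads, and 51, 58, 28 and 31 with the depth covariate. On estimated reads the medians of all genes tested also moved (-0.20, -0.13, -0.12 and -0.15), so sign changes there cannot set the members apart. Among the members named by rule, each in the comparison that named it, the following turned. On estimated reads Rpl4 came to -0.016 (apical agonist). Rpl10a (apical S1P) came to 0.0014 per M of the library total, 0.0054 by upper quartile and 0.039 by low-value genes, and Rpl22 (basal S1P) to 0.0011 by upper quartile and 0.076 by low-value genes. Without the Xist-mismatched libraries Rps19bp1 (apical agonist) came to 0.0037 and Rps10 (apical S1P) to 0.030. With 1 library left out Rps19bp1 ran from -0.229 to 0.040 (apical agonist) and from -0.212 to 0.065 (basal agonist), Rpl22l1 from -0.12 to 0.0049 (basal agonist), Rpl10a from -0.061 to 0.068 (apical S1P), Rpl22 from -0.022 to 0.019 (basal S1P) and Rpl3 from -0.076 to 0.010 (basal against apical S1P). Their cause was not tested. Rps10 and Rpl9-ps6 had the lowest means of the members, 11.8 and 14.0.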
